A study of Mus musculus with 28 samples.

Results

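CD4 T cells that had been stimulated for 2 days and then rested for 3 days in mice without their antigen were compared with CD4 T cells that had never been stimulated. The comparison takes the 2 arrays labelled CD4 transient on day 5 and the 2 arrays labelled CD4 unstimulated on day 5, chosen by sample title, which makes 4 of the 28 arrays of the study. All cells were CD4+ T lymphocytes carrying the AND T cell receptor transgene on a C57BL/6N background, so nearly all share a single antigen specificity. Transient cells spent 2 days in culture on plates coated with monoclonal antibodies against CD3 and CD28 before transfer into antigen-free hosts. Unstimulated cells had the same culture time, also with interleukin 7 in the medium, on plates without antibody and went into the same kind of host. Both groups were recovered on day 5 from spleen and subcutaneous lymph nodes and sorted by flow cytometry 2 times. RNA was amplified in 2 rounds and hybridised to Affymetrix Mouse 430A2 arrays. Values below are log2 signals per gene, each from 1 probe set, so a step of 1 is a doubling, and levels of different genes cannot be set against each other. Replicates are described by the submitters as biological and independent. Sex and age of the animals were not given in the sources used here, nor was whether animals were pooled.

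Further arrays are set beside this comparison. CD4 continuous cells (3 arrays, day 5) were stimulated in the same way and then moved into hosts that present their antigen. The same transient and unstimulated protocol was run with CD8+ OT1 receptor transgenic cells (3 arrays each, day 5). CD4 cells taken at the end of the culture (3 stimulated and 3 unstimulated arrays, day 2) show the state in which cells entered the host.

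A naive helper T cell is quiescent and recirculates through lymph nodes. Engagement of its receptor together with CD28 starts cytokine production, growth and division, and within days lineage factors, chemokine receptors and inhibitory receptors are induced. Once antigen is gone the cells return to rest, and part of the changed expression can persist, which is one basis of T cell memory.

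Among 12393 genes tested with limma, 1197 rose and 1624 fell in transient relative to unstimulated CD4 cells at an adjusted p below 0.05 (22.8% of genes called, 9.66% higher and 13.1% lower). Over these genes the SE of the difference had a median of 0.18. A change of at least 2-fold was reached by 428 of the genes that rose and 684 of those that fell, and one of at least 4-fold by 88 and 69. With 2 arrays against 2, the arrays of the groups do not overlap in 62.5% of all genes, so non-overlap alone carries little weight here. Without unstimulated array 1 the counts were 579 higher and 1092 lower, without unstimulated array 2 they were 735 and 1013, and without transient array 1 they were 792 and 1151.

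RNA quality measures and markers of other cells differed between the same groups. The signal of the 3' control probe set of beta-actin minus that of the 5' one, which is larger when transcripts or amplified products are shortened, was 2.73 and 2.42 on the transient arrays, against 0.67 and 0.98 on the unstimulated arrays. For GAPDH it was 3.60 and 3.47 on the transient arrays, against 2.24 and 2.16 on the unstimulated arrays. In the CD8 comparison the beta-actin measure ran the other way, from 0.66 to 1.02 on transient arrays, against 1.92 to 2.44 on unstimulated arrays. In CD4 continuous cells it was between 0.40 and 0.62. With the beta-actin measure as a covariate in the fit, the median standard error was 0.54, no gene rose and 4 fell at the adjusted threshold, while 538 higher and 698 lower genes had an unadjusted p below 0.05. The 4 genes were Acvrl1, Btf3l4, Cdc26 and Eif3m, which were not chosen by the naming rule. The mean of 20 B cell marker genes was 9.05 and 7.54 on the transient arrays, against 6.18 and 5.72 on the unstimulated arrays. With that mean as a covariate 277 genes rose and 373 fell. Because the groups do not overlap in these measures, their part in a gene's difference cannot be told apart from that of the treatment within the 4 arrays.

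**Figure D1:**
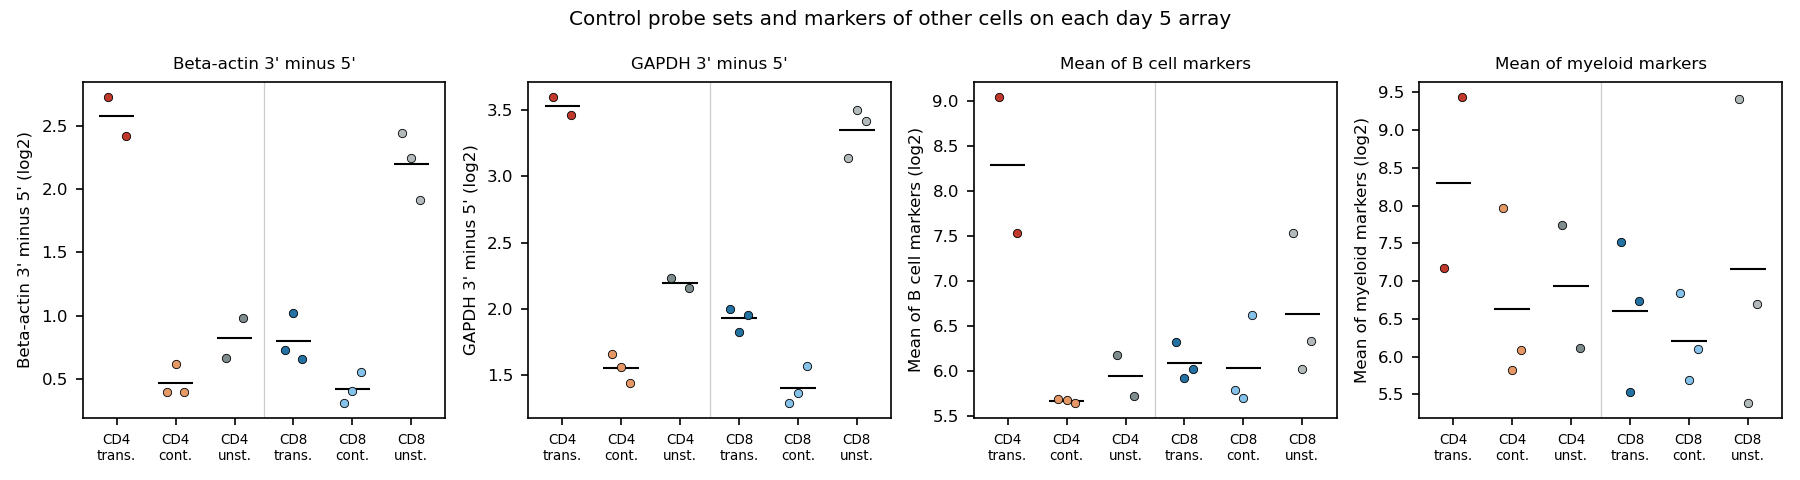
Each point is 1 day 5 array and each line a group mean, on log2 scales: beta-actin 3' minus 5' control signal, the same for GAPDH, the mean of 20 B cell markers and the mean of 22 myeloid markers. The CD4 transient arrays lie above the CD4 unstimulated arrays for beta-actin, GAPDH and the B cell mean, whereas the CD8 transient arrays lie below the CD8 unstimulated arrays for beta-actin and GAPDH.

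The CD8 experiment shares no array with the CD4 one, but both were tested in 1 fit with a shared estimate of each gene's spread. The CD8 calls separate the CD4 genes into 3 sets. Of the 1197 genes that rose in CD4 transient cells, 64 (5.35%) also rose in CD8 transient cells, 604 (50.5%) fell there and 529 were not called. Of the 1624 genes that fell, 45 (2.77%) also fell in CD8 cells, 1111 (68.4%) rose there and 468 were not called. In a fit of only the 4 arrays compared, 47 of the 64 shared rises and 25 of the 45 shared falls kept their CD4 call. Of all CD4 calls, 706 of 1197 rises and 1183 of 1624 falls did. Over all genes tested, 16.3% rose and 15.5% fell in CD8 cells. Across the 12393 genes the CD4 and CD8 differences had a Pearson correlation of -0.52, a description over genes measured on the same arrays and not over independent replicates. The beta-actin and GAPDH measures also differed in opposite directions in the 2 cell types, and their part in this correlation was not tested.

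**Figure D2:**
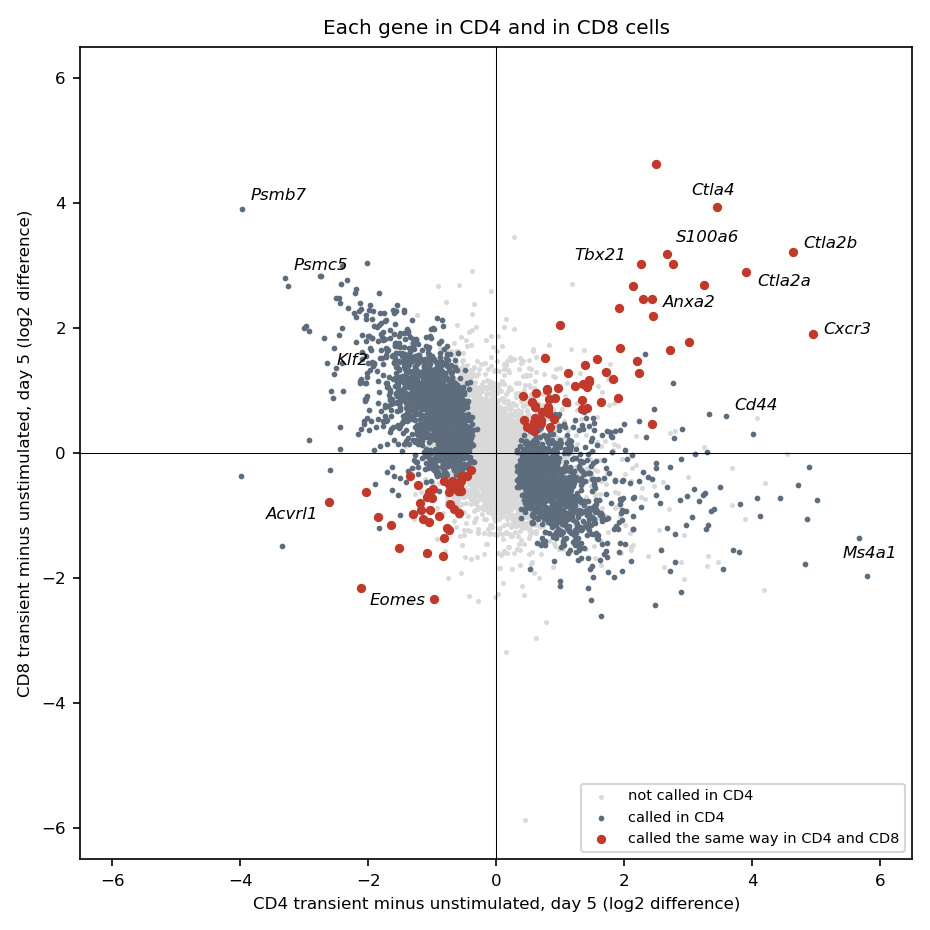
Each point is 1 gene, with its transient minus unstimulated log2 difference in CD4 cells on the horizontal axis and in CD8 cells on the vertical axis. Most called genes lie along the falling diagonal (r = -0.52 over all genes and -0.63 over those called in CD4). The genes called the same way in both cell types, such as Cxcr3, Ctla2b, Ctla4 and Eomes, lie off it.

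The genes that rose in both cell types were led by a chemokine receptor, a pair of protease inhibitor genes and an inhibitory receptor. Cxcr3 encodes the receptor for interferon-induced chemokines that guides effector and memory T cells into inflamed tissue. It stood at 12.71 and 12.99 on the transient arrays, against 7.79 and 8.02 on the unstimulated arrays, a 30.9-fold rise (log2 difference 4.95, SE 0.32, adjusted p = 1.20e-06). Its rise was also larger than the rise of 1.91 in CD8 cells (difference 3.04, adjusted p = 6.21e-05), where unstimulated cells already had a mean of 11.3. In CD4 continuous cells Cxcr3 averaged 12.76, close to the transient arrays.

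Ctla2b and Ctla2a encode small cysteine protease inhibitors known from activated mouse T cells. Ctla2b stood at 9.55 and 9.52 on the transient arrays, against 5.05 and 4.74 on the unstimulated arrays (4.63, SE 0.50, adjusted p = 3.56e-05). Ctla2a, named after its values were seen, stood at 9.13 and 10.49 on the transient arrays, against 5.78 and 6.01 on the unstimulated arrays. They are near-identical paralogs, so their probe sets may read each other's transcripts, and they are best taken as 1 observation. Ctla4 encodes the inhibitory receptor that competes with CD28 for its ligands. It stood at 11.58 and 11.23 on the transient arrays, against 8.04 and 7.88 on the unstimulated arrays, a 10.9-fold rise (adjusted p = 4.41e-05), beside a log2 rise of 3.94 in CD8 cells. The difference between the cell types was not called (-0.49, SE 0.49).

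The 250 bases before the start of these 4 genes, which had the largest CD4 differences among the shared rises, are shown from RefSeq (build GRCm38.p6), 5′ to 3′, with motif matches in capitals.
Cxcr3 (chrX:101734148-101734397, minus strand): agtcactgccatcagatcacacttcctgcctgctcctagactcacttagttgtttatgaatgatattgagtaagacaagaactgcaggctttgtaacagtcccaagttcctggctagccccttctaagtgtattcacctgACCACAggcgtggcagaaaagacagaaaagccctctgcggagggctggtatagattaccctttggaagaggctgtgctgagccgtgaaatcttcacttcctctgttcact
Ctla2b (chr13:60897448-60897697, minus strand): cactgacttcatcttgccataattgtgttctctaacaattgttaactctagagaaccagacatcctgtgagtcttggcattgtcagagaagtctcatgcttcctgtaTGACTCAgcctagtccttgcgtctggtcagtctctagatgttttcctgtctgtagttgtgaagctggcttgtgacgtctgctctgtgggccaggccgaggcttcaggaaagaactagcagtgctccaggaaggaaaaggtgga
Ctla2a (chr13:60936567-60936816, minus strand): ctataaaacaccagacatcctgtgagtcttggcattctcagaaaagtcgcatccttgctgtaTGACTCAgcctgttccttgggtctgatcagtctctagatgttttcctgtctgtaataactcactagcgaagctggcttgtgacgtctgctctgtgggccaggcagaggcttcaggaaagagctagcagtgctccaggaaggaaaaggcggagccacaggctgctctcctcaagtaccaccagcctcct
Ctla4 (chr1:60908775-60909024, plus strand): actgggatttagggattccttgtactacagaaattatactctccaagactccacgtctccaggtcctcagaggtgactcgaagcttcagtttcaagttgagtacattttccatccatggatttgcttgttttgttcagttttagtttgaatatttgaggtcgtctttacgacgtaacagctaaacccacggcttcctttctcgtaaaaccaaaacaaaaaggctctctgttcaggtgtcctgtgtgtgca
Searched on both strands were TGANTCA for AP-1, GGTGTGA for T-box factors such as the product of Tbx21, and TGTGGT for RUNX factors. Cxcr3 held a RUNX match on the opposite strand, 110 to 105 bases before the start. Ctla2b and Ctla2a each held TGACTCA, 143 to 137 and 188 to 182 bases before the start. The longest identical run of their windows was 36 bases. In order, 193 bases were the same when gaps were allowed at no cost, which is not a count of aligned bases. No match was found in the Ctla4 window. For Ctla2a the table held 2 starts, and 1 is shown. Of 27025 genes with a promoter in the table, 7.82% held the AP-1 letters, 3.84% the T-box letters and 15.9% the RUNX letters. Of the 64 genes that rose in both cell types 53 had a promoter, of which 7, 3 and 9 held these motifs in the same order. These matches describe letters in a window, not binding.

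Other shared rises fall into a few roles. Casp1 and Casp4 encode inflammatory caspases, of which the Casp1 product cuts the interleukin 1 beta precursor. Casp1 stood at 10.16 and 10.09 on the transient arrays, against 7.35 and 7.45 on the unstimulated arrays (2.72, SE 0.20, adjusted p = 3.20e-06). Casp4 rose by 3.02 (SE 0.35). Both rises were larger in CD4 than in CD8 cells, which had differences of 1.66 and 1.78.

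Tbx21 encodes T-bet, the factor of type 1 helper and effector cells. It stood at 8.48 and 8.88 on the transient arrays, against 6.63 and 6.19 on the unstimulated arrays (2.27, SE 0.43, adjusted p = 0.00216), beside a CD8 rise of 3.02. In CD4 continuous cells it was far higher, at 11.58. Of 16 cytotoxic granule genes, 2 rose in both cell types, Nkg7 and Serpinb6b. Nkg7, a cytotoxic granule membrane gene, rose by 2.43 (SE 0.17) in CD4 and by 0.46 in CD8 cells, a called difference. Ccl5, a chemokine of memory and effector cells, stood at 9.58 and 10.27 on the transient arrays, against 7.69 and 8.29 on the unstimulated arrays (1.93, SE 0.47). Serpinb6b, an inhibitor of serine proteases, rose by 2.20 (SE 0.25).

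S100a6 and Anxa2, a calcium-binding protein and a membrane-binding annexin that are high in effector and memory T cells, rose with more spread between arrays. Anxa2 stood at 9.27 and 10.90 on the transient arrays, against 8.10 and 7.20 on the unstimulated arrays (2.44, SE 0.55, adjusted p = 0.00608). S100a6 stood at 9.11 and 10.19 on the transient arrays, against 7.28 and 6.67 on the unstimulated arrays (2.67, SE 0.65). For both genes transient array 2 was the higher, the array that was also high in myeloid markers. Nfatc1, a transcription factor driven by calcium signals, rose by 0.85 (SE 0.18).

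Of the 64 shared rises 21 kept their CD4 call with the B cell marker covariate, and of the 45 shared falls 8 did. Over all CD4 calls, 225 of 1197 rises and 357 of 1624 falls were kept. With that covariate Cxcr3 (4.66), Ctla2b (3.19), Nkg7 (2.66), Ctla4 (2.55), Casp1 (2.54), Casp4 (2.18), Tbx21 (3.01) and Eomes (-2.69) were still called in CD4 cells. With the beta-actin covariate none of the 64 shared rises was called, nor Eomes, with Cxcr3 at 4.81 (adjusted p = 0.13), Tbx21 at 4.23 (adjusted p = 0.26) and Casp4 at 1.37 (adjusted p = 0.687). The number of genes that rose in both was 42 without CD4 unstimulated array 1, and the number that fell in both was 24 without CD4 unstimulated array 2 and 29 without CD4 transient array 1 or CD4 unstimulated array 1.

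**Figure D3:**
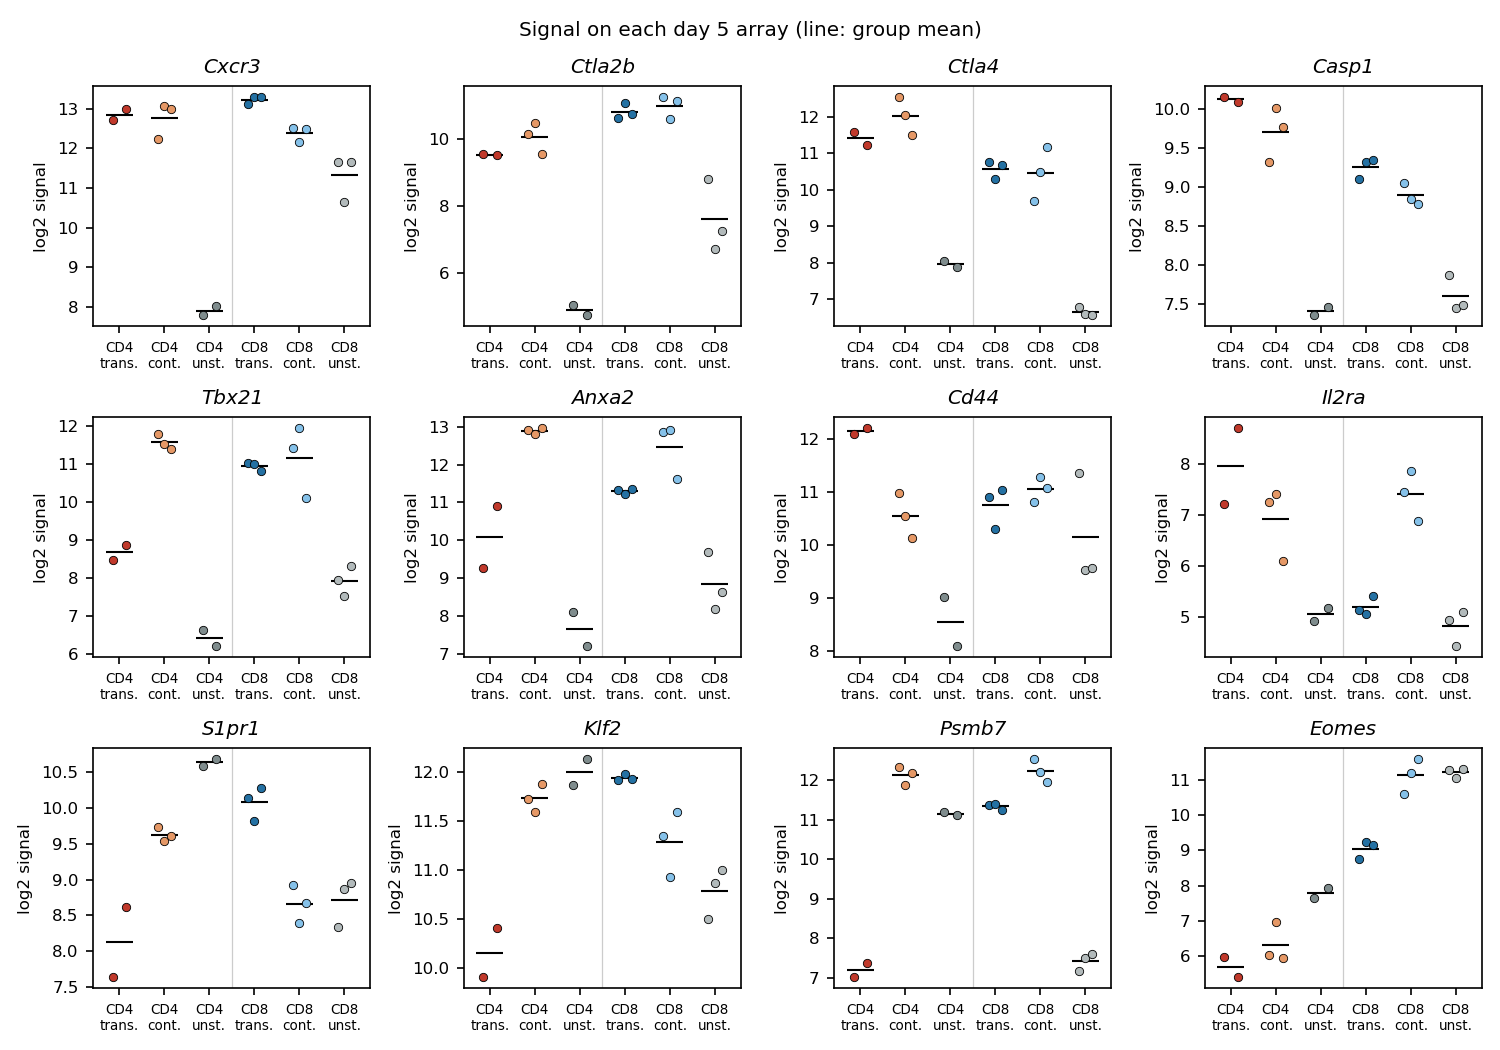
Log2 signal of 12 genes on every day 5 array (points) with group means (lines), CD4 groups left and CD8 groups right of the grey line, where trans., cont. and unst. stand for transient, continuous and unstimulated. Cxcr3, Ctla2b, Ctla4 and Casp1 are high in transient cells of both types, Eomes is low in both, and Psmb7, Klf2 and S1pr1 move in opposite directions.

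Among the 45 genes that fell in both cell types, Acvrl1 and Eomes had the largest CD4 differences. Eomes encodes a T-box factor of memory and innate-like T cells. It stood at 5.96 and 5.39 on the transient arrays, against 7.66 and 7.93 on the unstimulated arrays (-2.11, SE 0.35, adjusted p = 0.000757), beside -2.17 in CD8 cells, so that Tbx21 and Eomes, close relatives, changed in opposite directions in both cell types. Acvrl1, a receptor of the TGF-beta family named after its values were seen, stood at 4.37 and 4.15 on the transient arrays, against 6.74 and 7.01 on the unstimulated arrays (-2.62, SE 0.14). It is 1 of the 4 genes still called with the beta-actin covariate. Its signal was low on all other day 5 arrays, between 4.08 and 5.40, where the lowest 30% of genes had a mean below 5.36.

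A further group of activation genes rose in CD4 transient cells without a call in CD8 cells, and for each of those named here the difference between the cell types was called. Cd44, the hyaluronan receptor that marks antigen-experienced T cells, stood at 12.09 and 12.20 on the transient arrays, against 9.01 and 8.09 on the unstimulated arrays, a 12.1-fold rise (3.60, SE 0.51, adjusted p = 0.000259). The CD4 transient arrays were also above the 3 CD4 continuous arrays, which averaged 10.54. In CD8 cells Cd44 stood at 11.35, 9.54 and 9.55 on the unstimulated arrays, against 10.91, 10.29 and 11.03 on the transient arrays. CD8 unstimulated array 1, the highest of these, also had the highest B cell and myeloid marker means among them (7.53 and 9.42). Its part in the missing CD8 call was not tested. Il2ra, which encodes the alpha chain of the interleukin 2 receptor (CD25), stood at 7.21 and 8.70 on the transient arrays, against 4.93 and 5.17 on the unstimulated arrays (2.90, SE 0.48, adjusted p = 0.000809). Tnfrsf4, the costimulatory receptor OX40, rose by 1.98 (SE 0.33), and Bhlhe40, a transcription factor of cytokine-producing helper cells, by 2.78 (SE 0.51). Il2, the growth factor itself, stood at 7.87 and 6.08 on the transient arrays, against 5.03 and 4.83 on the unstimulated arrays (2.04, SE 0.47). With the B cell marker covariate Il2ra and Tnfrsf4 were still called (3.93 and 2.14), and Cd44, Bhlhe40 and Il2 were not (2.19, 1.83 and 0.85). With the beta-actin covariate none of these 5 genes was called, and their values lay between 0.38 for Il2 and 4.27 for Il2ra.

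Not every activation gene behaved in this way. Tnfrsf9, the costimulatory receptor 4-1BB, fell by 2.45 (SE 0.28), with 8.01 and 8.04 on the transient arrays, against 10.84 and 10.11 on the unstimulated arrays. Of the 15 measured activation and memory surface molecules, 3 rose and Tnfrsf9 fell, where 9.66% of all genes rose and 13.1% fell. Foxp3, the factor of regulatory T cells, which also carry Il2ra and Ctla4, was 1 of 8 measured genes of those cells. Of the 8, beside the same shares of all genes, 3 rose and Foxp3 alone fell. It stood at 5.30 and 4.71 on the transient arrays, against 5.93 and 6.05 on the unstimulated arrays (-0.98, SE 0.28, adjusted p = 0.0217). Both transient values lie below 5.36, the mean level under which 1 alternative left out the lowest 30% of genes. In that alternative 6 of the 8 genes were measured, of which 3 rose and none fell. Ifng, the type 1 effector cytokine, stood at 7.54 and 7.08 on the transient arrays, against 5.44 and 6.04 on the unstimulated arrays, and was not called (adjusted p = 0.16). Gzmb, a cytotoxic protease, was not called either (1.74, SE 0.84). CD4 continuous cells averaged 11.56 for Ifng and 12.76 for Gzmb.

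Of 18 measured genes of quiescence and lymphoid homing, 2 rose and 4 fell, where 9.66% and 13.1% of all genes did. S1pr1, the receptor that lets T cells leave lymph nodes, stood at 7.63 and 8.62 on the transient arrays, against 10.59 and 10.69 on the unstimulated arrays (-2.51, SE 0.28, adjusted p = 5.09e-05). Klf2, the factor that drives S1pr1, stood at 9.90 and 10.41 on the transient arrays, against 11.86 and 12.13 on the unstimulated arrays (-1.84, SE 0.22). Lef1, a factor of naive and memory precursor cells, fell by 2.53 (SE 0.37). In CD8 transient cells the same 3 genes rose, by 1.36, 1.15 and 1.27, as did 68.4% of all genes that fell in CD4 cells. The beta-actin measure also has opposite signs in the 2 comparisons. Without any 1 of the 4 arrays except transient array 1 none of the 18 rose. Neither Ccr7 nor Il7r was called, with differences of -0.61 (SE 0.36) and -1.41 (SE 0.85).

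The receptor complex and its kinases were lower. Of 17 measured genes, 10 fell and none rose, where 13.1% of all genes fell, and without unstimulated array 2 the count that fell was 6. The median difference over the 17 was -0.77, beside 0.04 over all genes, and with the mean of each gene's probe sets it was -0.26 with 7 called lower. Zap70, the kinase recruited to the receptor, stood at 8.55 and 8.25 on the transient arrays, against 10.29 and 10.38 on the unstimulated arrays (-1.94, SE 0.26, adjusted p = 0.000148). Txk, a Tec family kinase, fell by 2.06, and Lat, the membrane adaptor, by 1.22. Of the 10 genes that fell, 8 rose in CD8 transient cells, Zap70 by 2.15, where 68.4% of all genes that fell in CD4 cells rose there. The coreceptor Cd4 itself stood at 7.68 and 7.88 on the transient arrays, against 9.60 and 9.22 on the unstimulated arrays (-1.63, SE 0.19), and Zbtb7b, whose product commits thymocytes to the helper lineage, fell by 1.47. Cd3e fell by 0.63. Cd8a rose by 0.62 (SE 0.18) and was not called without any 1 of the 4 arrays. In bulk RNA, fewer cells of a type and less RNA per cell cannot be told apart. Zap70 stood between 8.18 and 8.87 on the CD8 unstimulated arrays, against 10.52 to 10.88 on the CD8 transient arrays. The CD4 transient and CD8 unstimulated arrays, where it was low, are those with the high beta-actin measure. With the beta-actin covariate none of the 17 genes was called, nor Cd4 or Zbtb7b. The part of that measure in these falls cannot be told apart from that of the treatment.

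Of 30 measured mitosis genes, 5 rose (16.7%, where 9.66% of all genes rose), none fell and 25 were not called, with a median difference of 1.12, and 26 of the 30 differences were positive. Top2a, which untangles DNA, stood at 10.14 and 10.08 on the transient arrays, against 8.32 and 7.45 on the unstimulated arrays (2.23, SE 0.56, adjusted p = 0.011). Cdc20, an activator of the anaphase complex, rose by 1.91, Racgap1 by 1.77 and Prc1 by 1.79, the last 2 acting in cell division. Mki67, a marker of cycling cells, was not called (1.67, SE 0.61). Without unstimulated array 1 the number that rose was 8 and without unstimulated array 2 it was 2, and without either transient array it was 3. CD4 continuous cells were far higher, with a mean of 12.30 for Top2a and 12.03 for Mki67. With the B cell marker covariate none of these genes was called and the median difference was 0.06.

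Replication genes moved both ways, where 9.66% of all genes rose and 13.1% fell. Rrm2, which makes DNA precursors, stood at 10.58 and 10.83 on the transient arrays, against 7.93 and 6.88 on the unstimulated arrays (3.30, SE 0.60, adjusted p = 0.0016). Pcna, the sliding clamp, fell by 1.63 (SE 0.18). Of 27 measured replication genes 4 rose and 4 fell, and without unstimulated array 2 these were 1 and 2, and without transient array 1 the rises were 2. Among cell cycle regulators Rb1 rose by 2.16 and its relative Rbl2 fell by 2.13, each with the opposite sign in CD8 cells.

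In several metabolic lists the share that fell was above the 13.1% of all genes. Of 31 genes of oxidative phosphorylation 11 fell and 2 rose, and 9 of the 11 rose in CD8 transient cells, where 68.4% of all genes that fell in CD4 cells did. Without transient array 1 the counts were 6 lower and none higher, and without either unstimulated array it was 7. Atp5j, a subunit of the ATP synthase, stood at 11.54 and 11.61 on the transient arrays, against 12.95 and 12.69 on the unstimulated arrays (-1.25, SE 0.18), and Sdhd, of succinate dehydrogenase, fell by 1.04. Of 15 glycolysis genes 6 fell and 2 rose, and 5 of the 6 rose in CD8 transient cells, beside the same 68.4%. Pkm, the last enzyme of the pathway, fell by 1.98 and Pfkl by 2.06, while the hexokinase Hk2 rose by 2.88 (SE 0.59). Slc2a1, the glucose transporter, rose by 1.74, but another of its probe sets fell. Of 31 ribosome biogenesis genes 9 fell and 2 rose, among them Ncl, nucleolin, which fell by 1.64, and Nop58, of the nucleolar methylation complex, by 2.06. Of 24 sterol synthesis genes 8 fell and 3 rose, and 1 fell without transient array 1 or without unstimulated array 2, and 5 without unstimulated array 1. Of 21 genes of the unfolded protein response 4 fell and none rose, Calr by 1.27, and without unstimulated array 1 the count was 2.

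**Figure D4:**
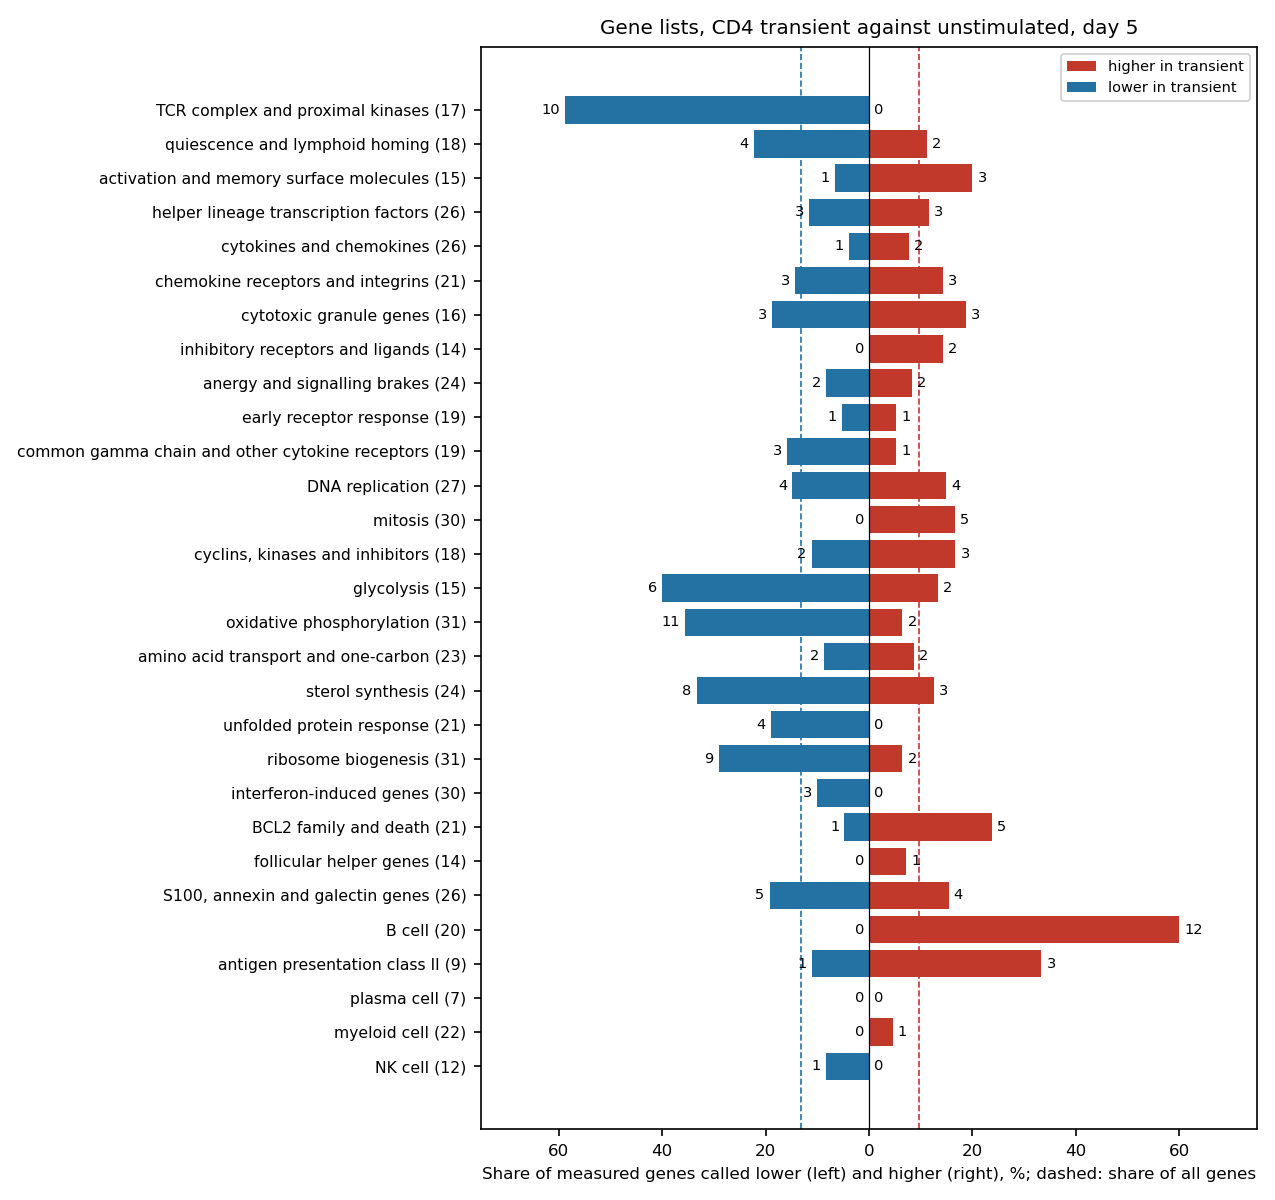
Share of the measured genes of each list called lower (left) and higher (right) in CD4 transient against unstimulated cells, with the number of genes beside each bar and the number measured in brackets. Dashed lines mark the shares over all genes (13.1% lower, 9.66% higher), and the receptor list stands out on the left with 10 of 17 and the B cell markers on the right with 12 of 20.

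Of the 12 largest falls in CD4 cells, 9 were called higher in CD8 cells, where 68.4% of all falls were. Psmb7 and Psmc5 encode subunits of the proteasome. Psmb7 stood at 7.01 and 7.37 on the CD4 transient arrays, against 11.19 and 11.12 on the CD4 unstimulated arrays (-3.97, SE 0.21, adjusted p = 3.00e-07). In CD8 cells it stood between 11.24 and 11.40 on the transient arrays, against 7.18 to 7.60 on the unstimulated arrays. The low CD4 transient and CD8 unstimulated arrays are those with the high beta-actin measure. Psmc5 followed the same order of arrays (-3.30, SE 0.28, in CD4 and 2.80 in CD8 cells). So did Phpt1, Anapc11, Shoc2, Drap1, Plekhj1, Nfx1 and Oard1 among the 12 largest falls, with CD4 differences between -3.25 and -2.70. Pdlim4, with the largest fall, Ramp1 and Ncmap were not called in CD8 cells. Pdlim4, a LIM protein of the cytoskeleton, stood at 3.95 and 4.32 on the transient arrays, against 7.53 and 8.72 on the unstimulated arrays (-3.99, SE 0.29), and Ramp1, part of the receptor for a neuropeptide, fell by 3.35 (SE 0.67).

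Beyond single genes, 1344 called genes had more than 1 probe set, and in 184 of them another probe set of the gene was called the opposite way. Of the 64 shared rises 24 had more than 1 probe set and 1 had an opposite call.

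Markers of B cells made up much of the top of the list of rises. Of 20 measured B cell markers 12 rose and none fell, with a median difference of 2.23, where 9.66% of all genes rose. Ms4a1, which encodes CD20, stood at 12.85 and 11.13 on the transient arrays, against 7.33 and 5.30 on the unstimulated arrays (5.67, SE 1.38, adjusted p = 0.0093). Cd79b, a chain of the B cell receptor complex, stood at 11.91 and 9.90 on the transient arrays, against 6.62 and 5.17 on the unstimulated arrays (5.01, SE 0.64). Both were higher on transient array 1 than on transient array 2. With the B cell marker mean as a covariate Ms4a1 turned to -0.40. Ms4a1 is 1 of the 20 genes averaged in that mean, so the covariate holds its own signal and a shrunken difference was built in. Without transient array 1 the counts were 2 higher and 1 lower, and without unstimulated array 2 they were 6 higher.

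The 12 largest rises also held Ly6d, Ly86 and Fcrla, all known from B cells, with differences of 5.80, 4.82 and 4.44. The immunoglobulin heavy chain gene Ighm was high in both groups, at 13.51 and 14.47 on the transient arrays, against 11.88 and 12.07 on the unstimulated arrays, and was not called. Pou2af1, a B cell coactivator that follicular helper T cells also use, rose by 2.97. Cd79a and the class II invariant chain Cd74 were not called (1.07, SE 0.46, and 2.12, SE 1.22). Of 9 class II genes 3 rose and 1 fell, where 9.66% and 13.1% of all genes did. In CD8 transient cells none of the 20 B cell markers rose and 2 fell. Of 7 measured plasma cell markers none was called, but all 7 differences were positive, with a median of 0.93 and a largest of 6.86. In all 7 the transient arrays lay above the unstimulated arrays, as in 33.1% of all genes. Their mean was 8.08 and 8.43 on the transient arrays, against 6.76 and 6.14 on the unstimulated arrays.

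Myeloid markers varied between arrays of the same group as well as between groups, with 21 of 22 differences positive and a median difference of 1.12. Their mean over 22 genes was 7.17 and 9.44 on the transient arrays, against 7.74 and 6.12 on the unstimulated arrays, so that the groups overlapped, and of the 22 only Ccr1 was called (5 genes without transient array 1, none without any 1 of the others). Lyz1, lysozyme, stood at 10.49 and 13.46 on the transient arrays, against 12.54 and 9.31 on the unstimulated arrays. With the myeloid mean as a covariate, added after the data were seen, 1245 genes rose and 1507 fell.

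Of the remaining largest rises, Fgl2, Pkig, Serpinb1a and Marcks stand in no list, and Scd1 stands in the sterol and lipid list. Fgl2, a secreted fibrinogen-like protein, stood at 7.35 and 9.96 on the transient arrays, against 4.00 and 3.52 on the unstimulated arrays (4.90, SE 1.08). Scd1, a fatty acid desaturase, stood at 11.14 and 9.07 on the transient arrays, against 5.46 and 5.04 on the unstimulated arrays (4.85, SE 0.68), while CD4 continuous cells averaged 5.09. Pkig, an inhibitor of protein kinase A, rose by 4.72 (SE 0.85), Serpinb1a, an inhibitor of granule proteases, by 4.13 (SE 0.73), and Marcks, a substrate of protein kinase C, by 4.07 (SE 1.19). Ly6d, Scd1, Pkig and Serpinb1a were higher on transient array 1, as the mean of the 20 B cell markers was, though Ighm among those 20 was higher on transient array 2. Fgl2 and Marcks were higher on transient array 2, as the mean of the myeloid markers was. Which cells these signals came from was not tested.

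The remaining lists held calls in both directions, where 9.66% of all genes rose and 13.1% fell. Of 23 genes of amino acid transport and one-carbon metabolism 2 rose and 2 fell, and of 14 inhibitory receptors and ligands 2 rose, Ctla4 among them, and none fell. Of 21 genes of the BCL2 family and death, 5 rose (3 without transient array 2 or unstimulated array 2) and 1 fell, with Pmaip1, which encodes the death-promoting NOXA, up by 2.90 (SE 0.54). Of 26 cytokines and chemokines 2 rose and Tgfb1 fell (-1.42, SE 0.26). Of 24 genes of anergy and signalling brakes 2 rose, Dusp6, a phosphatase of the ERK kinase, by 1.52 and Spred1, which restrains Ras signalling, by 1.24, and 2 fell. Of 19 early receptor response genes Nfatc1 rose and Jund fell (-1.59, SE 0.22). Of 21 chemokine receptors and integrins 3 rose, with Itgav up by 1.83 and Cxcr6 by 1.48 beside Cxcr3, and 3 fell. Of 16 cytotoxic granule genes 3 rose and 3 fell, with Prf1, perforin, down by 1.99 (SE 0.48) and Ctsw, a cathepsin, by 1.28. Of 19 cytokine receptors 1 rose and 3 fell (1 without any 1 of the 4 arrays), among them Il17ra (-1.99, SE 0.20). Of 26 S100, annexin and galectin genes 4 rose (1 without unstimulated array 2, 2 without transient array 2) and 5 fell (3 without transient array 2), among them Anxa6 (-2.43, SE 0.32) and Lgals9 (-2.33, SE 0.26), both of which rose in CD8 transient cells. Of 30 interferon-induced genes none rose and 3 fell, and none fell without transient array 1 or without unstimulated array 1, and 1 without unstimulated array 2. Several of the small counts in these lists also rest on 1 array. Without unstimulated array 1 the falls among cytotoxic genes were 1 and the rises among cytokines and chemokines 1. Without transient array 1 or without unstimulated array 2 the falls among chemokine receptors and integrins were 1, the rises among inhibitory receptors 1 and the rises among anergy genes 1. Without transient array 1 the rises among early response genes were 2. Without any 1 array except transient array 1 the falls among amino acid genes were 1.

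The day 2 arrays show where these genes stood when cells left the culture. On day 2, 1320 genes were higher and 89 lower in stimulated CD4 cells (10.7% and 0.718% of genes). The third unstimulated array of each cell type had a lower median than the other day 2 arrays, and without them the counts were 3251 and 4888 (26.2% and 39.4% of genes). Of the 1320 genes higher on day 2, 175 (13.3%) were higher on day 5, 304 (23.0%) were lower and 841 (63.7%) were not called, beside 9.66% and 13.1% of all genes called higher and lower. Without the third unstimulated arrays the shares were 11.8%, 24.3% and 63.9% of 3251.

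Of the 64 genes that rose in both cell types on day 5, 25 were also called higher on day 2, and 33 without the third arrays. Tbx21 had a day 2 difference of 5.69, Ctla4 of 4.38, Serpinb6b of 4.09 and Casp4 of 3.89, each larger than on day 5. Others had no call on day 2. Cxcr3 differed by 1.02 on day 2 (adjusted p = 0.494), Ctla2b by 0.72, S100a6 by -0.28 and Ccl5 by -2.13, beside day 5 differences of 4.95, 4.63, 2.67 and 1.93. Without the third arrays Ccl5 was called lower on day 2 (-1.54, adjusted p = 0.00864). Whether the differences changed between the days was not tested, since each day was fitted on its own.

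**Figure D5:**
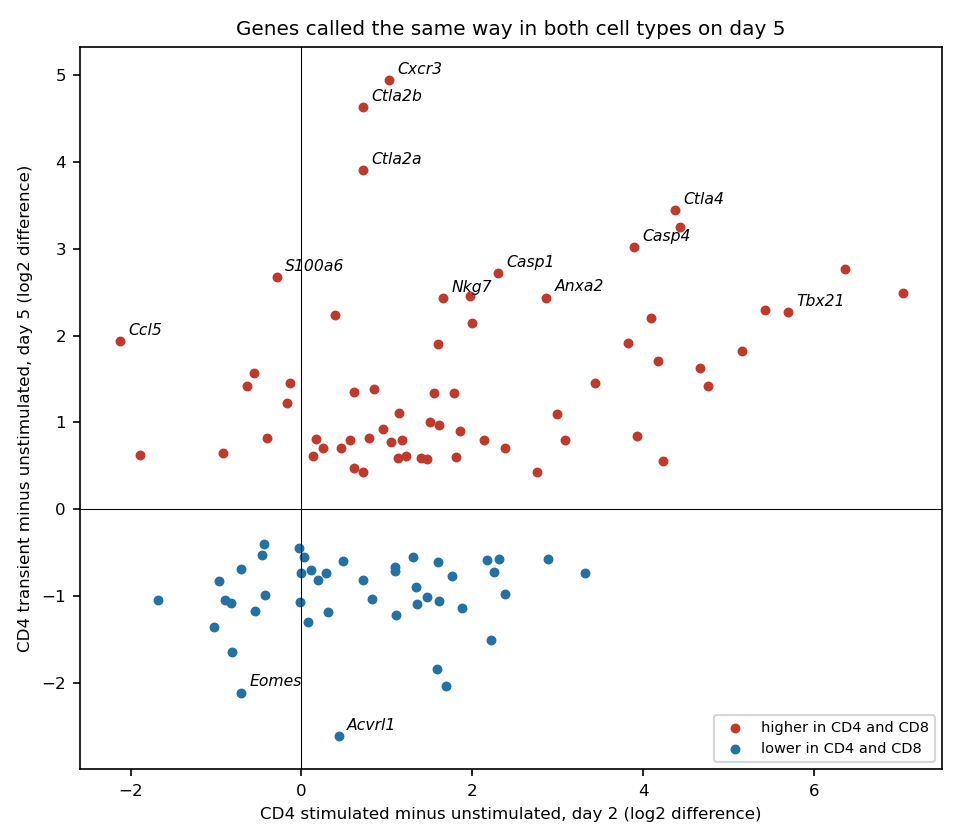
Genes called higher (red) or lower (blue) in transient cells of both CD4 and CD8 type on day 5, with the CD4 log2 difference on day 2 on the horizontal axis and on day 5 on the vertical axis. Ctla4, Casp4 and Tbx21 were far right and high, whereas Cxcr3, Ctla2b and S100a6 were high on day 5 with small day 2 differences.

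Other activation genes were strongly higher on day 2. Il2ra differed by 5.15 on day 2 and 2.90 on day 5, Cd44 by 3.94 and 3.60, Bhlhe40 by 6.02 and 2.78, Rrm2 by 5.67 and 3.30, and Il2 by 6.08 and 2.04. Klf2 and S1pr1 were lower on both days, with -4.38 and -2.97 on day 2 beside -1.84 and -2.51 on day 5. Nop58, Ncl and Pkm, each 1 of the 304 genes higher on day 2 and lower on day 5, were higher by 4.15, 4.17 and 4.79 on day 2 and lower by 2.06, 1.64 and 1.98 on day 5. The beta-actin measure lay between 1.11 and 1.39 on the stimulated day 2 arrays, against 3.37 to 4.30 on the unstimulated day 2 arrays, so it has opposite signs on the 2 days as well, and its part in these changes of sign was not tested.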

How the data were processed

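RNA of 28 samples was measured on Affymetrix Mouse 430A2 arrays. The authors deposited log2 values per probe set made with RMA, per the submitters' processing notes, and background correction and normalization settings beyond that name were not given in the sources used here. Of 22690 probe sets, 20380 had 1 gene symbol, 691 several, 1555 none and 64 were controls. A single probe set stood for each gene, the brightest by its mean across the 28 arrays, which left 12393 genes. The 16 day 5 arrays (6 groups, 10 residual degrees of freedom) were fitted with limma 3.58.1 in R 4.3.3, and the day 2 arrays in a fit of their own. P-values were adjusted with the Benjamini-Hochberg method over all genes and called below 0.05. The test was checked on simulated data with independent noise for each gene and no difference in RNA quality or other cells between groups. In the CD4 comparison 77% of genes changed by 1 and 99% of those changed by 3 (log2) were recovered. The check does not cover such differences between arrays. The number of arrays, 2 per CD4 group, limits the precision. Named genes were the 12 largest rises and falls, the 6 largest CD4 minus CD8 differences each way, up to 4 called genes per list and a fixed set, and other genes are marked as chosen after their values were seen. The members and lists were chosen with earlier results of these data known. Some genes of the fixed set are not reported here. Replicate numbers did not pair the samples (correlation of deviations -0.208), so the fit has no block. Alternatives changed the probe set rule, filter, normalization, arrays fitted, covariates and thresholds, and left out each array in turn.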

Additional observations from a re-analysis of the deposited data

Results flagged for a closer look

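The transient minus unstimulated difference was tested between CD4 and CD8 cells on day 5, and it was higher in CD4 cells for 2344 genes and lower for 2298 (limma, adjusted p below 0.05). Among named genes that were higher, the CD4 minus CD8 value was 7.77 for Ly6d, 7.02 for Ms4a1, 6.59 for Ly86, 5.90 for Scd1, 5.77 for Cd79b, 5.24 for Pkig, 5.16 for Fcrla, 5.13 for Serpinb1a, 5.12 for Fgl2 and 4.78 for Marcks. It was 3.04 for Cxcr3, 3.00 for Cd44, 2.52 for Il2ra, 2.14 for Il2 and 1.98 for Nkg7. Among named genes that were lower, it was -7.88 for Psmb7, -6.10 for Psmc5, -5.93 for Phpt1, -5.59 for Plekhj1, -5.57 for Nfx1, -5.41 for Cwc15, -5.01 for Shoc2, -5.00 for Anapc11, -4.89 for Drap1, -4.55 for Oard1, -3.62 for Pdlim4 and -3.14 for Ncmap. It was -3.87 for S1pr1, -3.80 for Lef1, -2.99 for Klf2, -2.36 for Prf1, -1.70 for Foxp3, -1.41 for Cd4 and -1.21 for Cd3e. Outside the gene measurements, the 3' minus 5' control signal was higher on CD4 transient than on CD4 unstimulated arrays by 1.75 for beta-actin and by 1.34 for GAPDH.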

How the results depend on the processing

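Counts are given in one order: higher and lower in CD4 transient cells, CD4 minus CD8 difference higher and lower, higher in both cell types, lower in both, and lower in CD4 but higher in CD8. They were 1197, 1624, 2344, 2298, 64, 45 and 1111 as reported. With all 28 arrays in 1 fit they were 46, 41, 184, 341, 4, 0 and 30, with the beta-actin covariate 0, 4, 1, 10, 0, 0 and 3, and with the B cell marker covariate 277, 373, 1046, 1244, 22, 9 and 319. With every probe set they were 1858, 2785, 3559, 3870, 85, 77 and 1838, at an adjusted p below 0.01 they were 584, 987, 1312, 1779, 40, 17 and 692, and at 2-fold or more 428, 684, 1166, 1690, 30, 7 and 336. Leaving out 1 array at a time gave 579 to 894, 1013 to 1232, 1676 to 2380, 1980 to 2269, 42 to 95, 24 to 53 and 768 to 1079. The other alternatives kept each count within 1.5 times, among them quantile normalization (1344 and 1378 in CD4 cells) and the myeloid marker covariate added after seeing the data (1245 and 1507). The replicate block gave 1175 and 1596 and changed the call of none of 93 genes the text names, though it moved calls of other list members, and the crossed pairing, chosen after seeing the data, gave 1182 and 1590. On day 2, the 1320 higher and 89 lower genes became 3251 and 4888 without the third unstimulated arrays and 2509 and 2056 with median centring, 1565 fell with quantile normalization, and leaving out 1 array gave 529 to 1672 higher and 32 to 2250 lower. Signs turned with the beta-actin covariate for Anapc11 (0.36), Prf1 (0.42), Dusp6 (-0.82), Pou2af1 (-0.51), Ifng (-0.91) and Ighm (-1.07), and with the B cell marker covariate for Ms4a1 (-0.40), Ly86 (-0.25), Cd74 (-2.18), Cd79a (-0.52) and Ighm (-0.34). Ms4a1, Ly86, Cd79a and Ighm are themselves among the averaged B cell markers, so that covariate holds their own signal. The cause of the turned signs was not tested.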
